A study of Homo sapiens with 4 samples.

Results

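The genes examined encode secreted or shed signals of epithelial cells: the chemokines CXCL1, CXCL2, CXCL3, CXCL5, CXCL8, CXCL16, CX3CL1 and CCL20 and the cytokines IL6 and LIF. They were taken by name, as 10 of the 58302 genes in the deposited tables, by a rule that uses no measured value, although the list was drawn up with earlier results of these data known. The samples were 4 bulk RNA-seq libraries of NCI-H838, a human lung carcinoma line of the non-small cell type, all taken at day 3 and all carrying the same MIB1-iKO system. In that system a piggyBac transposon holds the guide RNA against MIB1 and a Cas9 that is switched on by doxycycline (Dox), and the cells were grown out from single clones. The labels do not say which guide or clone was sequenced. One group of 2 libraries had no Dox and the other group of 2 had 0.5 µg/mL Dox, and neither received added BMP ligand. The series asked what the transcriptome looks like with and without MIB1, an E3 ubiquitin ligase best known for acting on Notch ligands. Both groups carry the guide and the silent Cas9, and with no Dox-only or non-targeting libraries in the comparison the effects of Dox, of Cas9 induction and of MIB1 loss cannot be told apart.

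The 4 libraries held 15943025 to 24398411 counted reads. MIB1 itself, the check of the labels, was counted 598 and 588 times in the no Dox libraries and 90 and 59 times in the Dox libraries, a log2 fold change of -2.58 (adjusted p = 0.000375 by limma, a linear model with moderated variances, with Benjamini-Hochberg adjustment over all genes). Of 12 epithelial markers, KRT19 and NKX2-1 were at 0 reads in all 4 libraries. MUC1 had 4 to 17 reads per library, NAPSA 2 to 8 and SFTPC 3 to 8. The other 7 passed the filter on low counts, among them KRT7, KRT8, KRT18, EPCAM and CDH1. Of these 7 markers 4 lay above 0 with Dox and 3 below, with a median log2 fold change of 0.13, and 0 were called. KRT18 and KRT8 stood 0.41 and 0.34 log2 units lower with Dox (adjusted p = 0.339 and 0.362, limma). Their part in the results on the chemokines was not tested. Of 9 leukocyte markers, PTPRC, CD68 and FCGR3A were at 0 reads throughout and 2 passed the filter on low counts. CD14, the more abundant of these, had 128 to 185 reads (4.17 to 4.45 RPKM, log2 fold change 0.08), and the summed level of the list was 4.71 to 5.12 RPKM (reads per gene divided by gene length and sequencing depth) without Dox and 5.19 to 5.21 RPKM with Dox. Of 9 stromal and endothelial markers, COL1A2 and KDR were at 0 reads throughout and 2 passed the filter, LUM with 73 to 143 reads and COL1A1 with 22 to 89 reads. They differed by -0.13 and -0.56 on the log2 scale (adjusted p = 0.921 and 0.711, limma), and the summed level was 2.50 to 2.72 RPKM without Dox and 2.09 to 2.67 RPKM with Dox.

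Chemokines are small secreted proteins that draw leukocytes along a gradient by engaging receptors coupled to G proteins. CXCL1, CXCL2, CXCL3, CXCL5 and CXCL8 share a glutamate-leucine-arginine motif ahead of their first cysteines and attract neutrophils through CXCR2, and CXCL8 through CXCR1 as well. CXCL16 and CX3CL1 are made as transmembrane proteins that are cut from the surface, CCL20 attracts CCR6-bearing lymphocytes and dendritic cells, and IL6 and LIF signal through the shared receptor subunit gp130 to STAT3. In epithelial and carcinoma cells many of these genes are immediate targets of NF-κB, and their messenger RNAs are short-lived because AU-rich elements in the 3′ untranslated region recruit decay factors.

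The stretches ahead of the transcription start are shown for the 3 members with the most reads, CXCL8, CCL20 and IL6, and for CXCL1 and CXCL2 as a pair of close paralogs, because all of them carry the same NF-κB letters. Each is the 150 bases before the RefSeq start in GRCh38.p14, read 5′ to 3′ on the strand of the gene. Capitals mark matches on either strand to letters bound by NF-κB, which read GGNNTTTCC. In CXCL8 they also mark a match to the AP-1 letters TGANTCA, and in CXCL8 and CCL20 the core promoter letters TATAAA. The marked matches do not overlap. The windows are chr4:73740419-73740568 (plus strand) for CXCL8, chr2:227813692-227813841 (plus) for CCL20, chr7:22727050-22727199 (plus) for IL6, chr4:73869243-73869392 (plus) for CXCL1 and chr4:74099196-74099345 (minus) for CXCL2.
CXCL8: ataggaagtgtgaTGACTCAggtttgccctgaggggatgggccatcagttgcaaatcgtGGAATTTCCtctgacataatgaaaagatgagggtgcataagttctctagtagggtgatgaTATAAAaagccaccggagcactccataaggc
CCL20: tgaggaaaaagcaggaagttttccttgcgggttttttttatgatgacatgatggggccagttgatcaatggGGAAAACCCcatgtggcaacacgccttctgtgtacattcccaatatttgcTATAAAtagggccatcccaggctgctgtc
IL6: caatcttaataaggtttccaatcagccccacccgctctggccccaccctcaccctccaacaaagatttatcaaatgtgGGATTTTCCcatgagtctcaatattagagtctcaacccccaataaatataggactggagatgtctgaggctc
CXCL1: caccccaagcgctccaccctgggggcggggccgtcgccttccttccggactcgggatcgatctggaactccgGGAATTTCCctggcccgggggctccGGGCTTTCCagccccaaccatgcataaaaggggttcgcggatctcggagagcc
CXCL2: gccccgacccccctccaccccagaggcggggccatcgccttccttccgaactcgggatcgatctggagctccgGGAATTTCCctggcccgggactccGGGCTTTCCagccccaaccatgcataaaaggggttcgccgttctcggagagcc

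The RefSeq table of GRCh38.p14 held a promoter for 7 of the 10 genes, and CXCL16, CX3CL1 and LIF had none in it. All 7 matched GGNNTTTCC within 250 bases of the start, where 5.48% of 35116 promoters do. Many of these genes are known NF-κB targets, and CXCL1, CXCL2 and CXCL3 are paralogs with much alike stretches. The 7 are therefore not independent cases, and the share is no test of the group. CXCL1, CXCL2 and CXCL3 had a pair of matches each, and CXCL5, CXCL8, CCL20 and IL6 had 1 each, which in CCL20 lies on the opposite strand and is printed as GGAAAACCC, as it reads on the strand of the gene. The first base of the match stood at -91 in CXCL8, -79 in CCL20 and -72 in IL6, where -1 is the base just before the start. TGANTCA was found in CXCL8 alone among the 7, and in 6.57% of all promoters. TATAAA was found in CXCL8 and CCL20, and in 10.7% of all promoters. GGCGCC, letters bound by the BMP-activated SMAD1 and SMAD5, had no match in any of the 7 and occurs in 16.4% of all promoters. These matches describe letters in a window and say nothing of which factor is bound there.

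The genes formed a high and a low tier. IL6, CXCL8, CCL20 and LIF together made up 96.1% to 98.0% of the reads of the 10 genes in every library. CXCL1, CXCL2, CXCL3 and CXCL16 had between 4 and 24 reads per library. CXCL5 and CX3CL1 had at most 1 read. In RPKM, the scale on which genes of different length may be compared, the order of the group means without Dox was IL6, CXCL8, CCL20, LIF, CXCL2, CXCL3, CXCL1 and CXCL16. In both groups CXCL8 lay above CCL20, CCL20 above LIF and LIF above CXCL2 without overlap. IL6 and CXCL8 overlapped across the Dox libraries, although IL6 was the higher within each, and from CXCL2 downwards neighbours overlapped in at least 1 group.

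**Figure D1:**
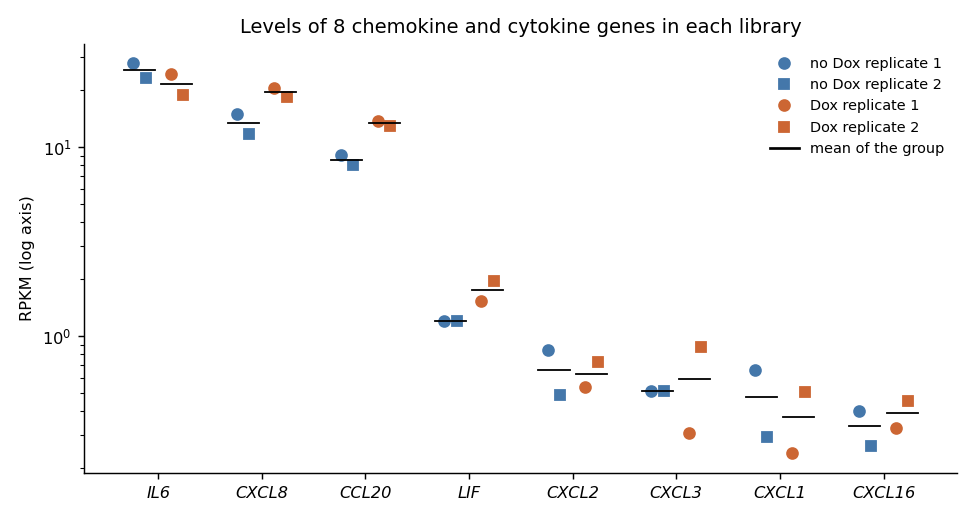
RPKM (log axis) of the 8 genes with reads in all 4 libraries, by library (blue, no Dox; orange, Dox; circles, replicate 1; squares, replicate 2), with a black bar at each group mean (n = 2). The 4 high genes lie between 1.20 and 27.7 RPKM and the 4 low genes between 0.239 and 0.872 RPKM, and the Dox points of CXCL8, CCL20 and LIF lie above their no Dox points.

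Between Dox and no Dox, none of the 10 genes passed the test, which asked for an adjusted p of at most 0.05 and at least a 2-fold change. Across all genes 6 of 16181 passed it, or 0.0371%. CXCL5 and CX3CL1 had too few reads to be tested, and 8 genes were fitted. CXCL8, CCL20 and LIF had an unadjusted p under 0.05, each with the higher level in the Dox libraries, against 4.68% of all genes with an unadjusted p under 0.05 and a higher level. No member had one with a lower level, for which the share of all genes was not taken. By edgeR's quasi-likelihood test 3 members had an unadjusted p under 0.05, and by DESeq2 2 did. In each of these fits 0 passed after adjustment, and the share of all genes under 0.05 was not taken. With the replicate number added to the limma fit, 4 members had an unadjusted p under 0.05, IL6 with a lower level. The share of all genes under 0.05 was not taken there either, and the 4.68% above belongs to the fit without replicate number. In that fit 2 members, both below a 2-fold change, had an adjusted p of at most 0.05, against 7.13% of all genes. With 2 libraries a group, the smallest p that an exact permutation test can give is 0.333, so every smaller p given here borrows the spread estimated over all genes.

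CXCL8 (interleukin-8, the main neutrophil attractant of airway epithelium) was covered by 706 and 513 reads in libraries without Dox and by 627 and 671 in the Dox libraries. Its levels were 15.0 and 11.7 RPKM without Dox and 20.5 and 18.5 RPKM with Dox, so both Dox libraries lay above both others once depth was taken into account. The log2 fold change was 0.58 ± 0.15 (SE, n = 2 per group), a fold of 1.49 with a 95% interval of 1.20 to 1.86, and the adjusted p was 0.228 (limma). The interval therefore stays below a 2-fold difference. In a bulk library a change in the number of expressing cells and a change in RNA per cell cannot be told apart. This holds for this gene and for those that follow. The gene lies at chr4:73740519-73743716 on the plus strand (GRCh38, GENCODE), no exon of another gene overlaps it, and none of its 50-base stretches recurs in another gene's transcripts.

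CCL20, the only chemokine ligand of CCR6, was covered by 179 and 149 reads in libraries without Dox and by 177 and 198 in the Dox libraries. In RPKM these were 9.05 and 8.08 without Dox and 13.8 and 13.0 with Dox, and the groups did not overlap. The log2 fold change of 0.66 ± 0.19 was the largest among the 8 fitted members, with a fold of 1.58 (95% interval 1.20 to 2.09) and an adjusted p of 0.302 (limma). A 2-fold difference lies inside that interval. The gene spans chr2:227805739-227817564 on the plus strand, and the RefSeq start used for the printed stretch lies inside this GENCODE span, as it does for CXCL8 and IL6.

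LIF, a gp130 cytokine that holds stem cells undifferentiated and acts on many tissues, was covered by 112 and 104 reads in libraries without Dox and by 93 and 141 in the Dox libraries. In RPKM both no Dox libraries stood at 1.20 and the Dox libraries at 1.54 and 1.96, so the groups did not overlap, although Dox replicate 2 lay well above Dox replicate 1. The log2 fold change was 0.52 ± 0.23, a fold of 1.43 with a 95% interval of 1.02 to 2.01, and the adjusted p was 0.504 (limma). LIF lies at chr22:30240453-30246759 on the minus strand and shares exonic positions with LIF-AS1 and LIF-AS2 on the other strand. Since it is not stated whether counting used strand, reads of these antisense genes cannot be told apart from its own there, and 1.88% of the 50-base stretches of its transcript recur in theirs.

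IL6, the best known activator of STAT3 in epithelium, was the member with the most reads without Dox, at 1115 and 869, and had 635 and 589 reads with Dox. In RPKM it stood at 27.7 and 23.2 without Dox and 24.3 and 19.0 with Dox, and the groups overlapped. The log2 fold change was -0.21 ± 0.15, a fold of 0.866 with a 95% interval of 0.694 to 1.08, and the adjusted p was 0.711 (limma). Leaving out 1 library moved the value to -0.38 without Dox replicate 1, -0.34 without no Dox replicate 2, -0.08 without no Dox replicate 1 and -0.03 when Dox replicate 2 was omitted. For the RNA, the interval from all libraries excludes a fall to 0.5 of the level and also an increase of the size fitted for CXCL8. It does not bear on the protein, which the study's proteomics listed as lower in MIB1 knockout than in wild-type cells. IL6 lies at chr7:22725884-22732002 on the plus strand, with exons of STEAP1B and IL6-AS1 overlapping it on the other strand.

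**Figure D2:**
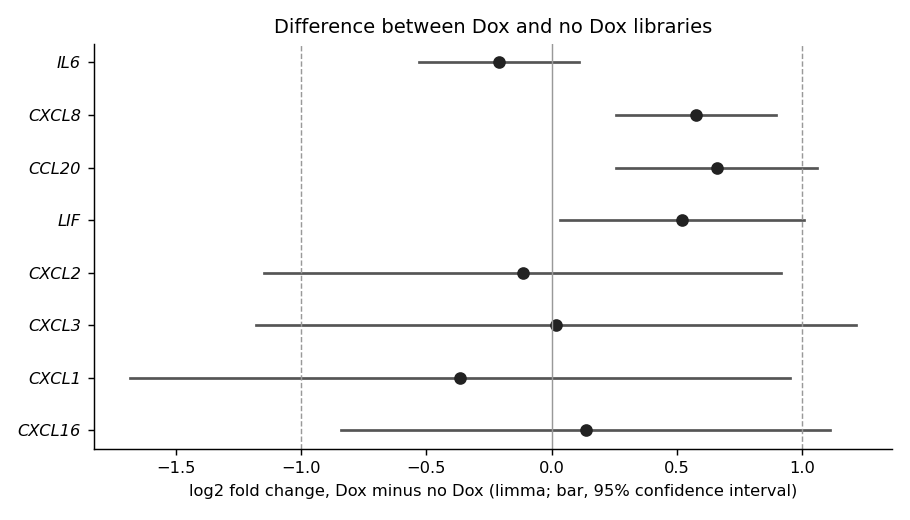
Log2 fold change, Dox minus no Dox, of the 8 genes fitted by limma (point) with its 95% confidence interval (bar); the dashed lines mark a 2-fold difference either way. The intervals of CXCL8, CCL20 and LIF lie above 0, that of IL6 spans 0 from -0.53 to 0.11, and those of the 4 low genes each reach at least 0.84 log2 units to either side.

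CXCL1, CXCL2 and CXCL3, the growth-regulated chemokines that sit in the same chromosome 4 cluster as CXCL8, were near the limit of detection. CXCL1 was counted 17 and 7 times without Dox and 4 and 10 times with it. CXCL2 was counted 24 and 13 times without Dox and 10 and 16 times with it. CXCL3 was counted 13 and 12 times without Dox and 5 and 17 times with it. For each of them the groups overlapped in RPKM, and replicates of 1 group lay further apart than the group means. The log2 fold changes were -0.37 ± 0.62, -0.11 ± 0.48 and 0.02 ± 0.56, with adjusted p from 0.901 to 0.996 (limma), and at this depth neither a 2-fold increase nor a 2-fold decrease lies outside the interval of CXCL3. Leaving out 1 library turned the sign of each, with CXCL1 ranging from -0.95 to 0.22 on the log2 scale, CXCL2 from -0.47 to 0.27 and CXCL3 from -0.73 to 0.73. Between 5.26% and 10.1% of the 50-base stretches of these transcripts are shared with another of the 3, so part of their few reads could belong to a paralog.

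CXCL5, the fifth neutrophil attractant of that cluster, had 0 reads in 3 libraries and 1 read in Dox replicate 2, where a count of 0 allows up to 3 reads in a library. It shares exonic positions with a gene without a symbol, ENSG00000287037, on the other strand. The neighbours CXCL6, PF4V1 and PPBP in the cluster were at 0 reads in all 4 libraries. PF4 (platelet factor 4), another chemokine of the cluster, named after its values were seen, was counted 41 and 43 times without Dox and 35 and 36 times with it, at 2.89 to 3.80 RPKM, and its log2 fold change was 0.19 (adjusted p = 0.901, limma). Among the listed chemokines of this cluster CXCL8 had the highest level, at 11.7 to 20.5 RPKM, PF4 followed, and CXCL1, CXCL2 and CXCL3 did not exceed 0.872 RPKM. Of 11 other genes fixed as neighbours, including 7 that are no chemokine, 3 were tested and none was called. MTHFD2L, the only one of the 3 with a mean of at least 50 reads, differed by 0.09 on the log2 scale (adjusted p = 0.920, limma).

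Of the membrane-anchored pair, CXCL16, the ligand of CXCR6, was counted 23 and 14 times without Dox and 12 and 20 times with it. In RPKM these were 0.403 and 0.263 without Dox and 0.324 and 0.454 with Dox, with overlap between the groups. The log2 fold change was 0.14 ± 0.46 (adjusted p = 0.957, limma), and it ranged from -0.14 to 0.43 when 1 library was left out. CX3CL1 (fractalkine), the ligand of CX3CR1, had 0 reads in both no Dox libraries and 1 in each Dox library. CXCL16 overlaps exons of MED11 and ZMYND15 on the other strand. The proteases ADAM10 and ADAM17, which release both proteins, were read in every library. Of 5 genes listed for shedding, which include cofactors and an inhibitor, none was called, and ADAM17 and its cofactor RHBDF2 differed by 0.13 and -0.32 on the log2 scale (adjusted p = 0.789 and 0.720, limma).

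**Figure D3:**
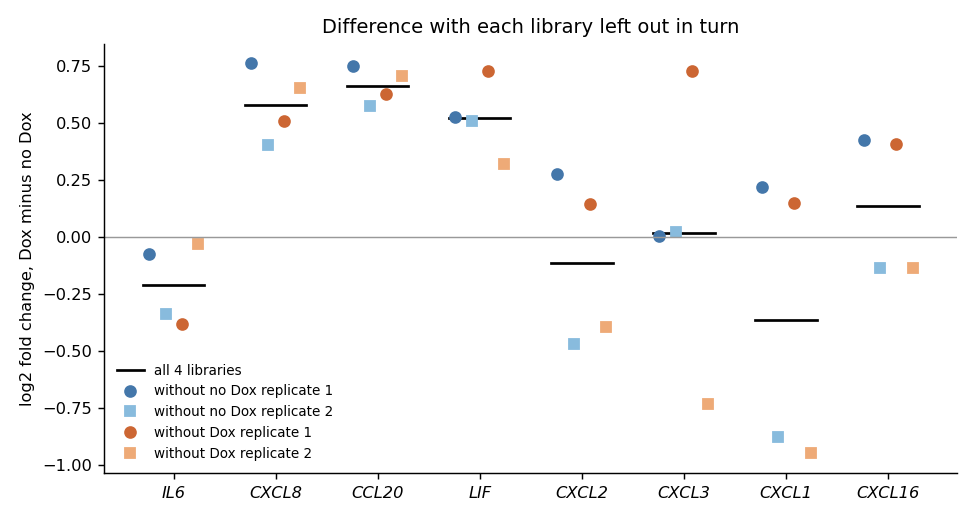
Log2 fold change, Dox minus no Dox, of the 8 fitted genes with all 4 libraries (black bar) and with each library left out in turn (points; limma, where the group left with 1 library is assumed to vary like the other). CXCL8, CCL20 and LIF stay above 0 at 0.32 to 0.76 and IL6 stays below 0, whereas CXCL1, CXCL2, CXCL3 and CXCL16 take both signs.

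Among the 8 fitted members 5 lay above 0 and 3 below, with a median log2 fold change of 0.08, against 49.9% of all genes above 0 and a median of 0.00. The members' median was -0.06 without no Dox replicate 2 and ranged from -0.084, without Dox replicate 2, to 0.46, without Dox replicate 1, and was 0.55 over those with a mean of at least 50 reads. In 3 members, CXCL8, CCL20 and LIF, both Dox libraries lay above both no Dox libraries in the normalized log2 CPM of the fit (CPM, reads scaled to the library total), and in 0 members below. Of all genes 19.5% lay above without overlap. In CPM with no further normalization the same 3 stood above, and 1 member, IL6, stood below without overlap. The share of all genes was not taken on that scale, nor for genes lying below, so these counts have no background to be read against.

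The balance between the high genes can be read within a library, where depth and per-library scaling cancel. The ratio of CXCL8 to IL6 reads was 0.633 and 0.590 without Dox and stood at 0.987 and 1.14 with Dox, which is a mean fold of 1.74. The ratio of CCL20 to IL6 reads was 0.161 and 0.171 without Dox and stood at 0.279 and 0.336 with Dox, which is a mean fold of 1.85. The ratio of LIF to IL6 reads was 0.10 and 0.120 without Dox and stood at 0.146 and 0.239 with Dox, which is a mean fold of 1.71. In none of these 3 ratios did the groups overlap, and each had an exact two-sided permutation p of 0.333, the smallest that 2 against 2 libraries allow. All 3 share IL6 as their denominator and are not independent of each other. They were formed after the values of these genes were known. In CPM the 3 numerators lay above and IL6 below without overlap, so the ratios could not have overlapped and their permutation p was fixed beforehand. The share of other gene pairs whose ratio separates the groups was not taken.

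Together the 10 genes had a summed level of 89.7 and 79.3 CPM without Dox and 98.1 and 97.6 with Dox. Within that sum the IL6 share was 50.9% and 51.7% without Dox and 40.6% and 35.4% with Dox. The CXCL8 share was 32.3% and 30.5% without Dox and 40.1% and 40.3% with Dox. Per length, IL6 lay above CXCL8 in both no Dox libraries by more than the spread between them (23.2 to 27.7 against 11.7 to 15.0 RPKM), whereas with Dox the ranges overlapped across libraries (19.0 to 24.3 against 18.5 to 20.5 RPKM). Within each Dox library IL6 was still the higher, with CXCL8 at 0.845 and 0.975 of its RPKM, against 0.542 and 0.505 without Dox.

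**Figure D4:**
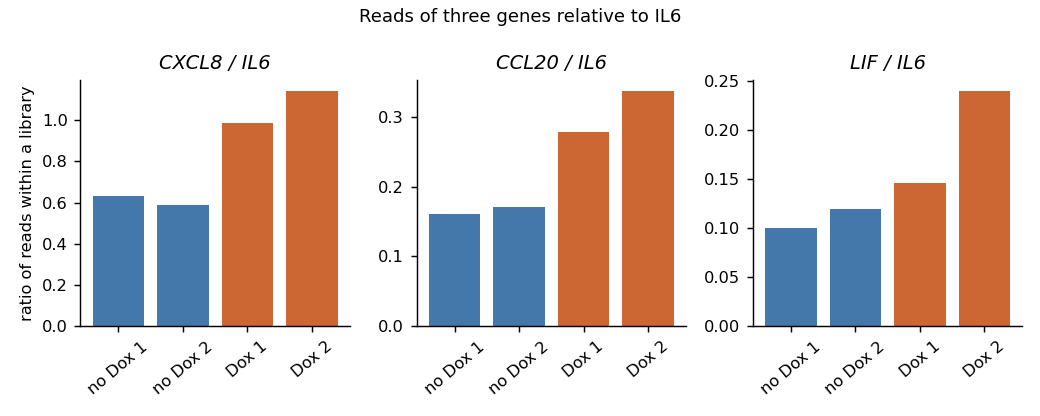
Ratio of CXCL8, CCL20 and LIF reads to IL6 reads in each library (blue, no Dox; orange, Dox; each bar is 1 library, and each axis starts at 0). In all 3 panels both Dox bars are taller than both no Dox bars, from 0.633 against 0.987 at the nearest for CXCL8 to 0.120 against 0.146 for LIF.

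The 3′ untranslated regions of the members differ in their density of AUUUA, the core of the AU-rich decay element. IL6 has 6 in 425 bases, or 14.1 per kilobase, and 0.357% of 18471 genes are at least as dense. CXCL2 has 14.0 per kilobase, CXCL3 10.4, CXCL1 7.77, CXCL8 7.19, CCL20 6.34 and CXCL5 5.51, against a median of 1.64 over all genes. LIF has 2.19 per kilobase, and CXCL16 and CX3CL1 have 1.03 and 0.994. In the Dox comparison the fitted values of the denser genes lay on both sides of 0, above for CXCL8, CCL20 and CXCL3 and below for IL6, CXCL1 and CXCL2. Those of LIF and CXCL16 lay above. CXCL1, CXCL2, CXCL3 and CXCL16 had few reads and turned sign when 1 library was left out, so their signs cannot be set against density. Of 9 genes for factors that set the decay or stability of cytokine messages, none was called, 1 lay above 0 and 8 below, with a median of -0.12. The one above 0 was ZFP36 (tristetraprolin, which promotes decay of these messages) at 0.50 ± 0.19 (adjusted p = 0.437, limma). KHSRP, another decay factor, differed by -0.40 (adjusted p = 0.546).

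Among the 16 NF-κB subunits, kinases and inhibitors all 16 were tested and 0 were called. Above 0 lay 10 and below 0 lay 6, with a median of 0.16 that ranged from 0.03 to 0.26 when 1 library was left out. An unadjusted p under 0.05 was found for 5 with a higher level in Dox libraries, against 4.68% of all genes, and for 0 with a lower one. The same counts were 1 higher and 1 lower in each of the further NF-κB targets, the receptors, the mRNA decay factors and the other cytokines. They were 2 and 0 in the gp130 and STAT3 list, 0 and 2 in the epithelial markers, and 0 and 0 in the other lists. The share of all genes with a lower level was not taken, so the lower counts have no background. The largest differences were in inhibitors of the pathway that are also its targets: TNFAIP3 (A20) at 0.49 ± 0.16 (adjusted p = 0.363) and NFKBIE at 0.45 ± 0.17 (adjusted p = 0.439, limma). Of 15 further NF-κB target genes 12 were tested and 0 were called, with 4 above 0, 8 below and a median of -0.08 that ranged from -0.23 to 0.11 when 1 library was left out. They pointed both ways, with BIRC3, an inhibitor of apoptosis, at 0.48 ± 0.14 (adjusted p = 0.309) and SAA1, an acute-phase protein, at -0.58 ± 0.13 (adjusted p = 0.167, limma).

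The gp130 and STAT3 list held 8 tested genes, with 0 called, 6 above 0, 2 below and a median of 0.09. PIM1, a kinase induced by STAT3, differed by 0.56 ± 0.20 (adjusted p = 0.383), and SOCS3, the feedback inhibitor of gp130, by 0.30 ± 0.13 (adjusted p = 0.518, limma). On the receptor side IL6R, IL6ST (gp130), LIFR and OSMR had reads in every library, from 148 reads for IL6R in Dox replicate 1 upwards. The chemokine receptors of the members were at or near 0: CXCR1, CXCR2 and CCR6 had 0 reads in all 4 libraries, and CXCR6 and CX3CR1 had at most 3. Of 16 receptor genes 6 were tested and 0 were called. The atypical receptor ACKR3, a scavenger of chemokines, was counted 614 and 478 times in the no Dox libraries and 231 and 322 times in the Dox libraries. It differed by -0.52 ± 0.16 (adjusted p = 0.333), and IL11RA, the receptor of IL11, by 0.37 ± 0.16 (adjusted p = 0.480, limma).

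Of 36 other chemokines, 20 were at 0 reads in all libraries, 7 were tested and 0 were called, with a median of 0.19. CCL2, a monocyte attractant, stood at 36.3 to 47.8 RPKM, above every one of the 10 genes, and differed by 0.21 ± 0.14 (adjusted p = 0.686). CXCL10, an interferon-induced chemokine, differed by 0.46 ± 0.25 (adjusted p = 0.605, limma). Of 27 other cytokines 11 were tested and 0 were called, with 4 above 0, 7 below and a median of -0.06, which ranged from -0.18 to 0.06 when 1 library was left out. IL11, a gp130 cytokine like IL6 and LIF, stood at 2.55 and 2.04 RPKM without Dox and 3.74 and 3.00 RPKM with Dox and differed by 0.55 ± 0.22 (adjusted p = 0.453). IL12A differed by -0.42 ± 0.28 (adjusted p = 0.688, limma). IL1B, named after its values were seen because it lies far from the rest, was counted 13 and 17 times in the no Dox libraries and 2 and 7 times in the Dox libraries and differed by -1.35 ± 0.61 (adjusted p = 0.525, limma).

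**Figure D5:**
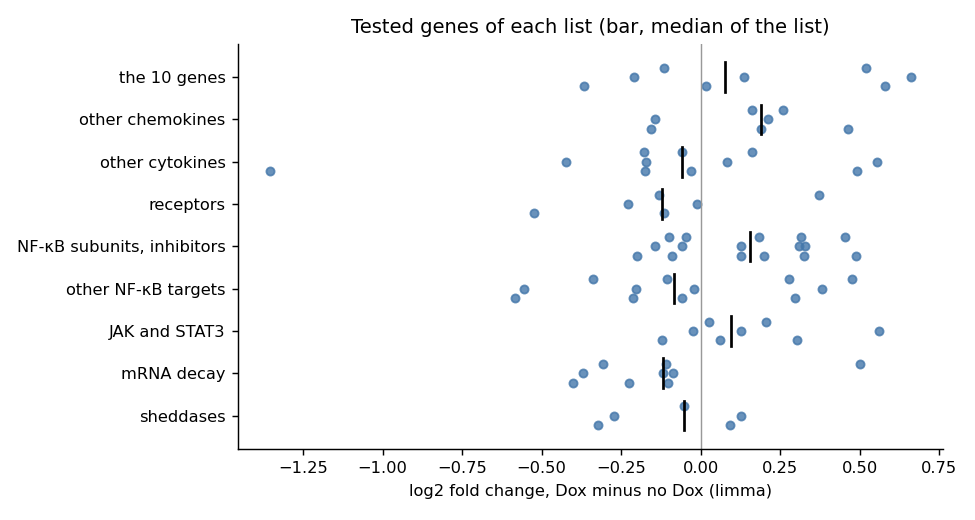
Log2 fold change, Dox minus no Dox (limma), of every tested gene of the 10 chemokine and cytokine genes and of 8 related lists, 1 point a gene (vertical offsets only separate points), with a black bar at the median of each list. The medians lie between -0.12 (receptors and mRNA decay factors) and 0.19 (other chemokines), and no gene shown was called.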

How the data were processed

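RNA-seq libraries were analysed from 2 samples without and 2 samples with Dox; the study calls them biological replicates, without saying whether they were separate cultures, so p-values measure the spread between these samples. The authors discarded ribosomal RNA reads, used GSNAP to align single-end reads to GRCh38 and HTSeqGenie to count those over exons. The deposited counts are whole reads per gene. The deposited RPKM divide them by gene length and depth, with a further scaling per sample by the authors. The methods name RefSeq gene models, whereas the identifiers are Ensembl's, and they do not say which of a low-input and a stranded kit was used or whether counting used strand. Symbols were found for 57532 of 58302 identifiers.

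Counts were filtered with filterByExpr (16181 genes), quantile-normalized and fitted with voom and limma 3.58.1 (R 4.3.3), with Benjamini-Hochberg adjustment over all genes fitted. Fold changes are on the log2 count scale. Alternatives used edgeR 4.0.16, DESeq2 1.42.0, other normalizations and filters, limma on log2(RPKM + 0.1) and log2(RPKM + 1), a replicate block and 1 library left out. No 2 libraries agreed within sampling noise. The script was tested on simulated data. Zero-count limits cover counting error only. Members and lists were chosen with earlier results of these data known. Text named MIB1, all 10 members and, from each list, the genes called or otherwise the 2 with the largest absolute log2 fold change at a mean count of at least 50. Overlaps and untranslated regions came from GENCODE, and promoters from RefSeq; matches to each promoter motif were searched in the 250 bases before the start.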

Additional observations from a re-analysis of the deposited data

How the results depend on the processing

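CXCL8, CCL20, LIF and IL6 kept their direction under all 13 alternatives, and 0 members were called in any. Genes called numbered 6, against 0 with no filter, 0 on log2(RPKM + 0.1), 0 on log2(RPKM + 1), 11 without the 2-fold limit, 78 with the replicate block and 0 to 0 with 1 library left out, where 1 residual degree of freedom remains. The replicate numbers were not taken as pairs: with 2 pairs, deviations of same-numbered libraries correlated at r = 0.134 across 16181 genes. Same-numbered libraries were the closest in counts (chi-square per degree of freedom 8.26 and 8.18, against 9.34 and 13.1 within groups and 15.8 and 15.9 for the other pairs), a hint from the data and not from the design. With the block, CXCL8 and CCL20 had adjusted p of 5.78e-05 and 0.00855 below a 2-fold change, LIF 0.126 and IL6 0.220, while 7.13% of all genes had an adjusted p of at most 0.05. Over the alternatives that left out no library, adjusted p ranged up to 0.613 for CXCL8 and CCL20. MIB1 stayed below 0 in all 13, at -3.00 to -1.34, and missed the threshold in 7. The median of the fitted members, 0.08, was 0.55 at a mean count of at least 50, which leaves fewer genes, and -0.084 to 0.46 with 1 library left out. CXCL3 was -0.058 with no filter. Leaving out 1 library gave CXCL1 -0.95 to 0.22, CXCL2 -0.47 to 0.27, CXCL3 -0.73 to 0.73 and CXCL16 -0.14 to 0.43. The cause was not tested. Depth limits the 6 genes with fewer than 25 reads per library.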
